A study of Mus musculus with 3 samples.

Results

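Proneutrophils with high Elane and limited Camp and Ngp of specific granules were taken from single-cell RNA sequencing of Kit-enriched bone marrow of C57BL/6 mice. Cells qualified if they held 500 or more unique molecular identifiers (UMIs, each standing for 1 captured transcript), 300 or more genes, and mitochondrial UMIs of no more than 10%. They were selected on Elane at 4000 or more UMIs per 1000000 UMIs of the cell (CPM), Camp plus Ngp below 10000 CPM, and at most 4 UMIs over the monocyte genes F13a1, Ms4a6c and Ccr2, so these measured levels chose the cells and count only as a description. Of 26415 kept cells, 2990 met all conditions. There were 3 libraries of the 10x Genomics 3 prime chemistry, version 2, and each group had 1. The rechallenged library came from mice given Escherichia coli 2 times (label 48 h), the challenged once library from mice given it 1 time (label 24 h), and the unchallenged library from mice at steady state. The number of challenges and the labelled hours differ together and cannot be told apart, and the labels state neither from when the hours count nor whether animals were pooled. The source label names bone marrow neutrophils although the cells were enriched for Kit.

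Neutrophils arise in bone marrow from granulocyte and monocyte progenitors through a proliferating stage, the proneutrophil or promyelocyte, that makes azurophil granules. These granules hold the serine proteases neutrophil elastase (Elane), proteinase 3 (Prtn3) and cathepsin G (Ctsg) and the enzyme myeloperoxidase (Mpo), all of which pass through the endoplasmic reticulum. Specific granule proteins such as Camp, Ngp, Ltf and Lcn2 follow once the factor encoded by Cebpe is active, so Elane without Camp and Ngp marks the earlier step.

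The start regions of genes on which the results below turn are shown first, as the 250 bases before the RefSeq start on GRCm38.p6, written 5′ to 3′ on the gene's strand. Azurophil genes were searched for GAGGAA, a core bound by PU.1 and its relatives, on both strands, and capitals mark each match. The letters were in the promoters of 4 of 4 azurophil genes with a table entry and in 23.3% of all 32851 promoters. The Elane region is chr10:79886062-79886311 (plus strand), the Prtn3 region chr10:79879417-79879666 (plus), the Ctsg region chr14:56102575-56102824 (minus) and the Mpo region chr11:87793534-87793783 (plus, 2 matches). Prtn3 and Elane lie next to each other, with 3072 bases between the annotated genes.
Elane: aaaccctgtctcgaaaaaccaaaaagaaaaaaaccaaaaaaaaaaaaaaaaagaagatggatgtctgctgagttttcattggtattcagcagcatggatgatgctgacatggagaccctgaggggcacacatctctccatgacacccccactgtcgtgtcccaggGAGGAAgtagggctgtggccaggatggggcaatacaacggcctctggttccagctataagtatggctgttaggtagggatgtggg
Prtn3: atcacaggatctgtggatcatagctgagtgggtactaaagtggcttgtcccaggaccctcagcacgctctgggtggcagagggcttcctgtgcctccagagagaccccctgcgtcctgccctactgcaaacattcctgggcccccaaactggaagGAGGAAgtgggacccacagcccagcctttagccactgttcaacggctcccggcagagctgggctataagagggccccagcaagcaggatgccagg
Ctsg: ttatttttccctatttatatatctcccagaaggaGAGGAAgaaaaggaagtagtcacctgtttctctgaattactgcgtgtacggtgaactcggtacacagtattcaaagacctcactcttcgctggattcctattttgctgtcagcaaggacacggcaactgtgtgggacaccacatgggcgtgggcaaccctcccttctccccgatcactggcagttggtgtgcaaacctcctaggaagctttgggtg
Mpo: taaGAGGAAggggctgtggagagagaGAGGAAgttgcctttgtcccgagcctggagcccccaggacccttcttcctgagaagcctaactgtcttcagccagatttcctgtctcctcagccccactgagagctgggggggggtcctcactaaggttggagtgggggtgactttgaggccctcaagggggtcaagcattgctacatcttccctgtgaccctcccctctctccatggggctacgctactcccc

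Genes of the response to challenge were searched for 3 other patterns, again on both strands and marked in capitals. The endoplasmic reticulum stress element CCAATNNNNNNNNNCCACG was found in 7 of 17 promoters of endoplasmic reticulum chaperones (41.2%) and in 0.113% of all promoters. Hspa5 at chr2:34771840-34772089 (plus) holds it on the gene's strand and Creld2 at chr15:88819396-88819645 (plus) on the other. The C/EBP pattern TTGCNNAA was in 7 of 13 acute phase promoters (53.8%) and 9.56% of all, and stands in Saa3 at chr7:46715677-46715926 (minus) on the other strand. The interferon-stimulated response element TTTCNNTTTC was in 10 of 25 interferon response promoters (40%) and 2.98% of all. Isg15 at chr4:156200819-156201068 (minus) holds 3 overlapping matches, and Bst2 at chr8:71537473-71537722 (minus) holds 2 overlapping matches. A match is a run of letters, not a measured binding site.
Hspa5: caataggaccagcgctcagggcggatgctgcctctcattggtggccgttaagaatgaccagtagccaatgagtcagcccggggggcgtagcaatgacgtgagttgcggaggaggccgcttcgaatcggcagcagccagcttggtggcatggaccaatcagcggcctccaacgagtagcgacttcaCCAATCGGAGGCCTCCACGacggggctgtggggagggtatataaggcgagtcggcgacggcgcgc
Creld2: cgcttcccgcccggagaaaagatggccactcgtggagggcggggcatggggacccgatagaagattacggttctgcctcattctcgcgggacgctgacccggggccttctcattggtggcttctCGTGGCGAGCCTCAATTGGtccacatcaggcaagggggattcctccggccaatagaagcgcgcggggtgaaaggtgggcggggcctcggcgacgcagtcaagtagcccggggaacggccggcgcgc
Saa3: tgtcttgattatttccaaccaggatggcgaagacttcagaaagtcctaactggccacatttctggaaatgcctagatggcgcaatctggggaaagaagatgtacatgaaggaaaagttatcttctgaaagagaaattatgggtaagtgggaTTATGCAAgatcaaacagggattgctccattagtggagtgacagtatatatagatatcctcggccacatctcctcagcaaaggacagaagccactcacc
Isg15: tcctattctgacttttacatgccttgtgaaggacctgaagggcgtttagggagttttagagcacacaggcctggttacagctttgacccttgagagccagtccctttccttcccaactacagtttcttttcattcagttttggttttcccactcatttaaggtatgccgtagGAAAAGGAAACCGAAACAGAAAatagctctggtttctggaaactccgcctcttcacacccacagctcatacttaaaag
Bst2: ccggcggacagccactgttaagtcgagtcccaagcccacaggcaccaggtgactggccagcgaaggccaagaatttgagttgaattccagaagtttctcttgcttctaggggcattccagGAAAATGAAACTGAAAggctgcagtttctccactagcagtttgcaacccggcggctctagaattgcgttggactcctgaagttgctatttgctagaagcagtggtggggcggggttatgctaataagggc

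The rule selected 1267 of 8542 rechallenged cells, 1030 of 8650 challenged once cells and 693 of 9223 unchallenged cells. Elane-high proneutrophils were thus 14.8% (exact 95% interval 14.1 to 15.6) of rechallenged, 11.9% (11.2 to 12.6) of challenged once and 7.51% (6.98 to 8.07) of unchallenged cells. Intervals for shares (Clopper-Pearson) and levels (Poisson) cover counting error only, and without replicate libraries no difference could be tested against the spread between mice. The denominator matters for this order. After leaving out cells high in Camp and Ngp but low in Elane and late neutrophils, the share was 19.3% in the rechallenged, 14.2% in the challenged once and 14.4% in the unchallenged library. Raising the Elane minimum to 8000 CPM gave 5.60%, 7.45% and 6.59% in the same library order, which places the rechallenged library last. In single-library shares, more proneutrophils and fewer of the other enriched cells cannot be told apart.

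Depth and background differed between libraries. The selected cells had median depths of 14538 UMIs in rechallenged, 26011.5 in challenged once and 18544 in unchallenged cells, and their summed UMIs were 19299505, 26516920 and 13141684 in that order. Their median mitochondrial share was 4.5% in rechallenged, 2.89% in challenged once and 3.29% in unchallenged cells. Whole libraries held between 95522747 and 135079828 UMIs. Pairs of libraries shared between 103 and 125 barcodes, of which 3 in all were selected in both libraries of a pair. Scrublet, a doublet caller, marked 28 rechallenged, 34 challenged once and 18 unchallenged selected cells, which were kept. The part of depth and mitochondrial share in the results below was not tested.

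The marker genes of proneutrophils were high in the selected cells and those of other lineages low, with Elane among the markers and also the selection gene. The summed level of Elane, Prtn3, Ctsg, Ms4a3 and Prss57 was 19486 CPM in rechallenged, 24337 in challenged once and 28328 in unchallenged cells. Among markers of other cells, stem and multipotent genes summed to between 7.96 and 11.2 CPM, dendritic cell genes to between 26.1 and 33.6 CPM and the 8 monocyte genes to between 54.7 and 68.7 CPM over the 3 libraries. T or NK cell markers summed to 8.13 CPM in rechallenged, 0.792 in challenged once and 0.913 in unchallenged cells, and megakaryocyte markers to 8.65, 7.05 and 12.6 CPM in that order, with Cd3e of T cells and Ppbp of megakaryocytes at 0 UMIs in every library. Erythroid markers summed to 67.9 CPM in rechallenged, 36.4 in challenged once and 138 in unchallenged cells, and B lineage markers to 27.1, 84.5 and 130 CPM in that order. Markers of immature neutrophils, Camp and Ngp among them, were higher than these. Their median per cell was 725 CPM in rechallenged, 616 in challenged once and 3060 in unchallenged cells.

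Transcripts of the specific granule genes Camp, Ltf and Lyz2 were present at levels that cells of an unrelated lineage also showed. Camp, a cathelicidin, was at 896 CPM in rechallenged, 541 in challenged once and 1647 in unchallenged proneutrophils, against 966, 460 and 3060 CPM in erythroid cells of the same libraries. Ltf, lactoferrin, was at 25 CPM in rechallenged, 25.5 in challenged once and 125 in unchallenged proneutrophils, against 112, 60.0 and 295 CPM in erythroid cells. Erythroid cells do not make these proteins, so the levels in proneutrophils lie at or below those measured where the genes should be silent for Ltf in every library and for Camp in the rechallenged and unchallenged libraries. Lyz2, lysozyme, was close to its erythroid level, at 168 CPM in rechallenged, 124 in challenged once and 485 in unchallenged proneutrophils against 165, 113 and 620 CPM in erythroid cells. Differences in Ltf and Lyz2 between libraries are therefore not read as expression.

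Cells of neighbouring gates stood on either side, and the genes named in this paragraph were chosen after their values were seen. Transitional cells met the Elane and monocyte conditions but had Camp plus Ngp at or above 10000 CPM, and numbered 427 in the rechallenged, 219 in the challenged once and 379 in the unchallenged library. Proneutrophils made up 74.8% of both stages together in the rechallenged, 82.5% in the challenged once and 64.6% in the unchallenged library. Ccl9, a chemokine, was higher in proneutrophils than in transitional cells, at 99.1 against 13.2 CPM in the rechallenged, 73.3 against 6.66 in the challenged once and 170 against 29.6 CPM in the unchallenged library. S100a9, a calcium-binding protein of maturing neutrophils, was lower in proneutrophils, at 5481 against 48224 CPM, 5972 against 62627 CPM and 6903 against 60894 CPM in the same library order. On the other side, Elane-low cells with Mpo of at least 1000 CPM numbered 974, 667 and 231. Prss34, a basophil protease, was at 6.17 CPM in proneutrophils against 780 CPM in those cells in the rechallenged library, at 3.43 against 502 CPM in the challenged once library and at 2.74 against 1343 CPM in the unchallenged library. Mcpt8, Cpa3 and Prg2, genes of basophils, mast cells and eosinophils, were also among the genes lower in proneutrophils in each library. The Elane-low gate thus holds other lineages and is not read as the stage before proneutrophils. The proneutrophil gate left out a basophil lineage that shares Mpo, whereas Fcnb and Wfdc21 were among the genes higher in proneutrophils than in the Elane-low cells. The Camp and Ngp limit also fixes part of the difference from transitional cells.

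The cells around the gate's edges resembled each other. Between 4000 and 4400 CPM of Elane lay 74 rechallenged, 43 challenged once and 12 unchallenged selected cells, and between 3600 and 4000 CPM just outside lay 67, 41 and 4. Prtn3 was at 5031 CPM inside and 5079 outside in the rechallenged library, 6311 inside and 5895 outside in the challenged once library, and 3889 inside and 3897 outside in the unchallenged library. Cd34, a progenitor surface protein, was lower inside than outside in each library, at 14.6 against 23 CPM in rechallenged, 31.3 against 42.3 in challenged once and 114 against 131 in unchallenged cells. At the monocyte limit, 52 rechallenged, 55 challenged once and 38 unchallenged cells with 4 UMIs were kept, and 33, 44 and 20 cells with 5 UMIs were left out. At the Camp plus Ngp limit, 12, 4 and 11 selected cells lay between 9000 and 10000 CPM and 17, 14 and 8 cells just beyond, up to 11000 CPM.

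Elane itself, neutrophil elastase, was spread differently in the 3 libraries above its minimum. The median cell held 7148 CPM in the rechallenged, 9239 in the challenged once and 15405 in the unchallenged library, and 5% to 95% of cells spanned 4352 to 13352, 4503 to 17854 and 5844 to 23742 CPM in that order. Cells at or above 16000 CPM were 21 of 1267 rechallenged (1.66%), 105 of 1030 challenged once (10.2%) and 322 of 693 unchallenged proneutrophils (46.5%). The distributions overlap but their peaks differ, with most rechallenged cells below 8000 CPM (62.3%, against 37.5% of challenged once and 12.3% of unchallenged cells). Since Elane chose the cells, these values are a description.

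**Figure D1:**
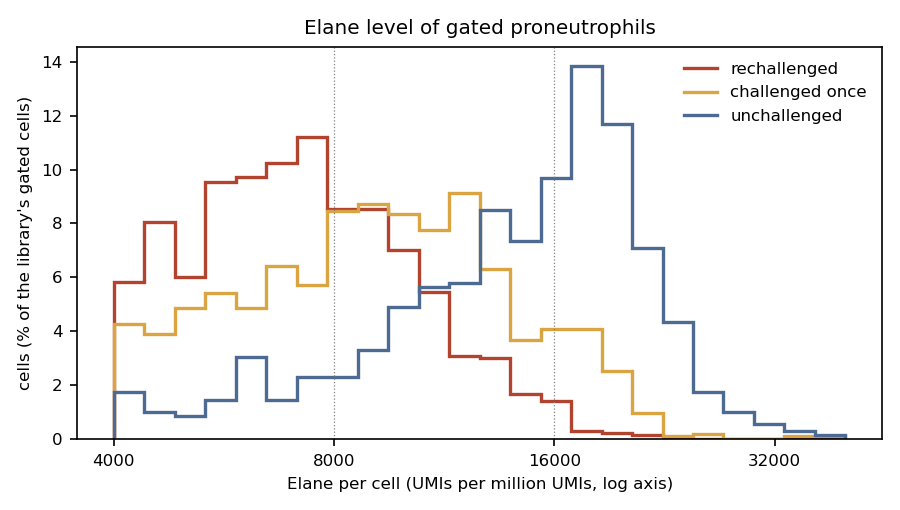
Share of each library's selected proneutrophils (vertical axis, percent) by Elane level per cell (horizontal log axis, CPM). The median is 7148 CPM in rechallenged, 9239 in challenged once and 15405 in unchallenged cells, and the dotted lines at 8000 and 16000 CPM bound the ranges used further on.

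The other azurophil genes did not follow Elane to the same extent. Prtn3, proteinase 3, was at 6462 CPM (6427 to 6498) in rechallenged, 7982 (7948 to 8016) in challenged once and 6869 (6825 to 6914) in unchallenged cells. Mpo, myeloperoxidase, was at 4611 CPM (4581 to 4642) in rechallenged, 4624 (4598 to 4650) in challenged once and 6744 (6700 to 6789) in unchallenged cells. Ctsg, cathepsin G, was at 3295 CPM (3270 to 3321) in rechallenged, 4408 (4383 to 4434) in challenged once and 4549 (4513 to 4586) in unchallenged cells. None of these reached the 1.5-fold difference used here as the line for a call. The log2 ratio of Mpo passed it downward for challenged once over unchallenged under median-of-ratios scaling (-0.62 in place of -0.54) and for rechallenged over unchallenged without a cell filter (-0.60 in place of -0.55). Prtn3 was highest after 1 challenge, while Mpo was 1.46-fold lower in both challenged libraries than in the unchallenged one (1.45 to 1.48 rechallenged, 1.45 to 1.47 challenged once). Ms4a3, a membrane protein of granulocyte and monocyte progenitors, was at 1690 CPM in rechallenged, 2143 in challenged once and 1906 in unchallenged cells, and the serine protease gene Prss57 at 365, 392 and 421 CPM in that order.

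The balance between the proteases therefore differed. For each Elane UMI there were 0.842 Prtn3 UMIs in rechallenged, 0.848 in challenged once and 0.471 in unchallenged cells. Mpo gave 0.601, 0.491 and 0.462 UMIs per Elane UMI in the same order, and Ctsg 0.429, 0.468 and 0.312. The Elane denominator is the selection gene, so these ratios describe the selected cells only. Across single cells thinned to 5000 UMIs, Spearman's rho of Prtn3 with Elane was 0.30 over 1257 rechallenged, 0.44 over 1021 challenged once and 0.54 over 683 unchallenged cells, given as a description because both genes share each cell's library. The Elane minimum of the gate also leaves a different range of Elane in each library, so the order of rho between libraries is not read.

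Granule matrix and processing genes included a proteoglycan that moved apart from the enzymes. Srgn, which encodes serglycin, the proteoglycan that holds proteases in granules, was at 3444 CPM (3418 to 3471) in rechallenged, 1939 (1922 to 1956) in challenged once and 2654 (2626 to 2682) in unchallenged cells. It was 1.78-fold higher (1.76 to 1.80) in rechallenged than in challenged once cells, and the only gene of this list of 13 measured at least 1.5-fold higher in that pair, against 1.57% of all measured genes, and 2 of the 13 passed under median-of-ratios scaling, which sets libraries level by their median gene ratio. Cst7, cystatin F, an inhibitor of granule cathepsins, was at 314 CPM in rechallenged, 411 in challenged once and 498 in unchallenged cells. Its log2 ratio of rechallenged over unchallenged was -0.65 and fell short of 1.5-fold, at -0.47, under median-of-ratios scaling. Ctsc, which activates the azurophil proteases, was at 15.7, 24.9 and 21.8 CPM in the same order of libraries.

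**Figure D2:**
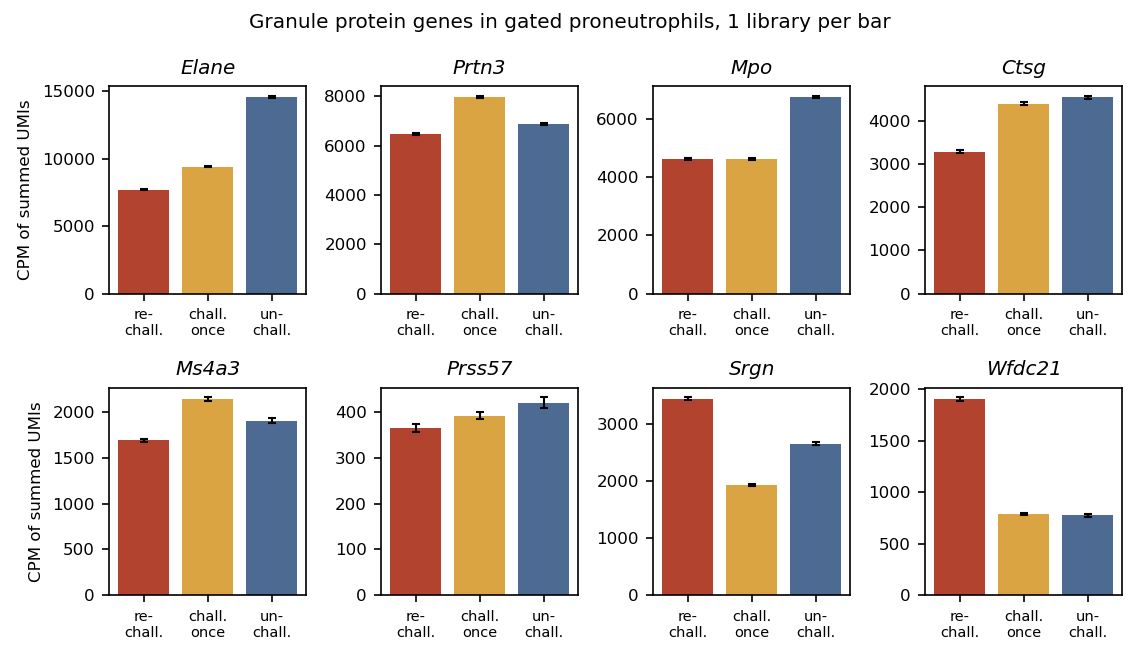
Level of 8 granule genes in selected proneutrophils (bars, CPM of summed UMIs, vertical axis from 0) in the rechallenged, challenged once and unchallenged library, with exact Poisson 95% intervals. Wfdc21 reaches 1901 CPM in rechallenged cells against 790 in challenged once and 773 in unchallenged cells, while Prtn3 lies between 6462 and 7982 CPM in all 3.

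Of 17 measured specific granule genes, 1, Wfdc21, was at least 1.5-fold higher in rechallenged than in unchallenged cells and 7 were lower (median -0.33). Of all measured genes, 2.02% were higher and 7.04% lower in that pair. The 7 were Ngp, Ltf, Lyz2, Chil3, Camp, Lcn2 and Fcnb. They thus include gate genes and, in Ltf and Lyz2, genes whose differences are not read as expression. Under median-of-ratios scaling 1 was higher and 6 lower (median -0.28). Over challenged once cells Wfdc21, Fcnb and Camp were higher and 1 of 16 lower (median 0.07), or 6 higher and 1 lower under that scaling (median 0.15). Of all measured genes, 1.57% were higher and 10.3% lower there. Camp lay below its erythroid level in the rechallenged library, as given above. The gate limits Camp and Ngp, which are in this list. The list still summed to 27540 CPM in rechallenged, 22481 in challenged once and 27255 in unchallenged cells. Its upper quartile per cell was 47254, 33954 and 35662 CPM in that order. The gate thus keeps cells with high levels of other genes of the list. S100a8, a calcium-binding protein, was at 16529, 12511 and 13521 CPM in the same order. Wfdc21, a secreted WAP domain protein made along with specific granule proteins, stood at 1901 CPM (1882 to 1921) in rechallenged, 790 (779 to 801) in challenged once and 773 (758 to 788) in unchallenged cells. The rechallenged library was 2.46-fold above the unchallenged one (2.41 to 2.51) and 2.41-fold above the challenged once library (2.37 to 2.45). Erythroid cells held 225, 72.9 and 306 CPM in the same order, below the proneutrophils in every library. With Elane ranges weighted equally, Wfdc21 kept its place above both other libraries, as its values by range show further on.

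Fcnb, ficolin B, a lectin of the azurophil to specific granule transition, was at 250 CPM (243 to 258) in rechallenged, 143 (139 to 148) in challenged once and 406 (395 to 417) in unchallenged cells. Erythroid cells held 21.9, 7.66 and 56.6 CPM of it, so the proneutrophil levels stood above that background. Its log2 ratio of rechallenged over unchallenged was -0.68, but 0.43 when the 3 Elane ranges were given equal weight, so its direction turned with the weight given to each range. The log2 ratio of challenged once over unchallenged, -1.44, became -0.28 under the same weighting.

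Several genes differed in level along Elane within each library. In the ranges 4000 to 8000, 8000 to 16000 and at least 16000 CPM of Elane, Cd34 was at 10.5, 1.61 and 2.89 CPM in rechallenged, 21.7, 6.71 and 2.67 in challenged once, and 94.8, 29.4 and 6.38 in unchallenged cells. Cd34 was thus lowest at high Elane in the challenged once and unchallenged libraries, and the unchallenged library held the highest level in each range. Irf8, a factor that favours monocyte and dendritic fates, was at 8.83, 3.80 and 2.89 CPM in rechallenged, 14.6, 5.83 and 3.74 in challenged once, and 43.3, 20.8 and 8.33 in unchallenged cells. Fcnb ran the other way, at 153, 396 and 766 CPM in rechallenged, 23.9, 177 and 595 in challenged once, and 38.9, 213 and 720 in unchallenged cells. The highest range held only 21 rechallenged cells, so its intervals are wide, and the values of Cd34 and Irf8 there rest on 1 UMI each. In the lowest unchallenged range, of 85 cells, erythroid markers summed to 671 CPM and basophil markers to 253 CPM, against between 48.2 and 56.5 and between 37.8 and 54.1 CPM in the higher ranges, and their part in that range's levels was not tested.

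Within every Elane range the rechallenged cells carried more Wfdc21 and Vcam1 than the others. Wfdc21 was at 1621, 2369 and 2461 CPM from the low to the high range in rechallenged, 381, 1022 and 1475 in challenged once, and 173, 519 and 1223 in unchallenged cells. Vcam1, an adhesion molecule, was at 67.5, 113 and 119 CPM in rechallenged, 14.6, 41.5 and 79.5 in challenged once, and 2.19, 26.6 and 50.5 in unchallenged cells. Its intervals in rechallenged and challenged once cells overlapped in the highest range. Vcam1 is also a gene of the macrophage marker list used here, beside C1qa, C1qb and C1qc. In rechallenged cells that list summed to 69.8, 115 and 119 CPM from the low to the high range, nearly all of it Vcam1. The source of its UMIs was not tested. Cebpe, the factor that drives specific granule genes, was at 206, 303 and 437 CPM in rechallenged, 229, 440 and 540 in challenged once, and 262, 283 and 405 in unchallenged cells, so it was higher at high Elane in all 3 libraries.

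**Figure D3:**
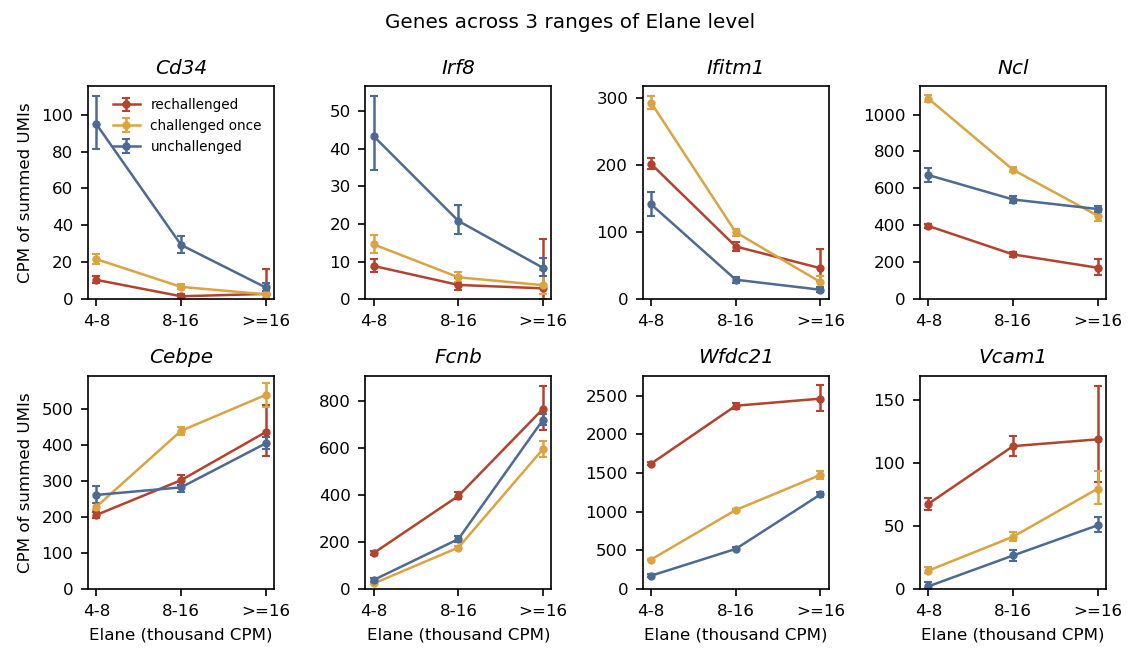
Level of 8 genes (vertical axes, CPM of summed UMIs, exact Poisson 95% intervals) in 3 ranges of Elane per cell (horizontal axis, in units of 1000 CPM) for the rechallenged, challenged once and unchallenged library. Cd34, Irf8 and Ifitm1 are highest in the lowest Elane range in each library, Fcnb and Cebpe are highest in the highest, and Wfdc21 is highest in rechallenged cells in each range.

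After 1 challenge, the question is how proneutrophils differ from those at steady state. Of 9119 genes with at least 100 UMIs over both libraries, 147 (1.61%) were at least 1.5-fold higher and 113 (1.24%) at least 1.5-fold lower in challenged once than in unchallenged proneutrophils, after adding 10 CPM to both levels. The median log2 ratio of all genes was 0.04. The log2 ratios given from here on all include the added 10 CPM, and folds do not.

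Saa3 had the largest log2 ratio of the genes that the naming rule could take in this comparison. Saa3 encodes serum amyloid A3, an acute phase protein made in the mouse by many tissues after bacterial challenge. It was at 46.8 CPM (43.8 to 50) in rechallenged, 113 (109 to 117) in challenged once and 1.14 (0.639 to 1.88) in unchallenged proneutrophils. The level was 98.7-fold higher (59.8 to 177) in challenged once and 41.0-fold higher (24.7 to 73.6) in rechallenged than in unchallenged cells, where 15 UMIs were counted. At 5000 UMIs per cell, 18.5% of rechallenged, 24.4% of challenged once and 0.586% of unchallenged proneutrophils held a Saa3 UMI (36.9%, 44.4% and 1.15% without thinning). Of rechallenged, challenged once and unchallenged erythroid cells, 1.43%, 0.996% and 0.120% held one, with 13338, 22812.5 and 25986 UMIs in the median cell. Saa3 was thus detected in part of the proneutrophils of both challenged libraries, well above the erythroid share.

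Transitional cells, the neighbouring stage, shared this difference, as did the Elane-low gate with its basophil lineage cells. Saa3 was at 58.7 CPM in rechallenged, 135 in challenged once and 0.770 in unchallenged transitional cells. The Elane-low Mpo-positive cells held 16.2, 33.4 and 1.05 CPM in the same order. Across the 3 Elane ranges, Saa3 was at 43.5, 54.0 and 23.1 CPM in rechallenged, 85.0, 144 and 41.6 in challenged once, and 2.19, 0.528 and 1.42 CPM in unchallenged cells, so both challenged libraries were above the unchallenged one in each range. Wfdc17, a second antiprotease of the acute phase list, was at 36.5 CPM in rechallenged, 23.7 in challenged once and 4.87 in unchallenged cells. Erythroid cells held 52.2, 43.1 and 2.02 CPM of Wfdc17, at or above the proneutrophil level in both challenged libraries, so it is not read as expressed by proneutrophils.

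The interferon-induced transmembrane genes, which restrict the entry of viruses into cells, split by library. Ifitm1 was at 155 CPM (150 to 161) in rechallenged, 174 (169 to 179) in challenged once and 38.3 (35.0 to 41.8) in unchallenged cells. Ifitm3 was at 164 CPM (158 to 169) in rechallenged, 587 (578 to 596) in challenged once and 166 (159 to 173) in unchallenged cells. Ifitm1 was thus high in both challenged libraries, and Ifitm3 only after 1 challenge, 3.55-fold (3.39 to 3.71) above the unchallenged level. Ifitm2 was at 345, 589 and 576 CPM in the order rechallenged, challenged once, unchallenged. With equal weight for the 3 Elane ranges, the log2 ratio of Ifitm1 was 1.06 in place of 1.93 for challenged once over unchallenged, and 0.73 in place of 1.77 for rechallenged over unchallenged. That of Ifitm3 for rechallenged over unchallenged became -0.63 in place of -0.02, past 1.5-fold lower.

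Other cells of the libraries also carried these genes. Ifitm1 was at 182 CPM in rechallenged, 234 in challenged once and 189 in unchallenged erythroid cells, and Ifitm3 at 171, 439 and 265 CPM. The erythroid level of Ifitm1 was above that of proneutrophils in each library and differed by less than 1.5-fold between libraries. The Elane-low Mpo-positive cells held 705, 1139 and 647 CPM of Ifitm1. The part of free RNA in the proneutrophil levels was not tested.

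Endoplasmic reticulum chaperones, which fold proteins on the way to granules, were higher as a group after 1 challenge. Of 20 genes of the list, all measured, 10 were at least 1.5-fold higher and 0 lower in challenged once than in unchallenged cells, with a median log2 ratio of 0.52 (9 higher and a median of 0.45 under median-of-ratios scaling). Hspa5, the chaperone BiP, was at 806 CPM (794 to 819) in rechallenged, 1213 (1200 to 1226) in challenged once and 586 (573 to 600) in unchallenged cells. Creld2, a secretory pathway isomerase, was at 121 CPM (116 to 126) in rechallenged, 252 (246 to 258) in challenged once and 91.2 (86.1 to 96.6) in unchallenged cells. Both were highest after 1 challenge, with folds over unchallenged of 2.07 (2.02 to 2.12) for Hspa5 and 2.76 (2.59 to 2.94) for Creld2, the 2 genes shown above with a stress element in the start region. Sdf2l1, a BiP cofactor, was 2.04-fold higher and Manf, a secreted stress protein, 1.76-fold higher.

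Hsp90b1, the chaperone GRP94, was at 867 CPM in rechallenged, 783 in challenged once and 413 in unchallenged cells. It was the 1 gene of the 20 at least 1.5-fold higher in rechallenged than in unchallenged cells, where the list median was 0.10, and 1 of 3 with a median of 0.28 under median-of-ratios scaling. In erythroid cells the list's median was 0.15 for challenged once over unchallenged. Among regulators of the unfolded protein response, 2 of 15 measured, Asns and Sel1l, passed 1.5-fold upward and 0 downward (median 0.35), and 0 passed under median-of-ratios scaling (median 0.28). Of 26 translocation and secretion genes, 0 passed 1.5-fold in either direction, with a median of 0.19.

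The list of cytosolic heat shock chaperones, which also holds the mitochondrial proteins Hspd1 and Hspe1, was higher after 1 challenge as well. Of 15 measured, 6 were higher by at least 1.5-fold, Hspd1 and Hspe1 among them, and 0 lower. The median was 0.50 (0.42 under median-of-ratios scaling, 0.10 in erythroid cells). Hspa1b, an inducible HSP70, was at 2.28 CPM (1.66 to 3.06) in rechallenged, 32.6 (30.5 to 34.9) in challenged once and 5.25 (4.09 to 6.64) in unchallenged cells. Hspd1, a mitochondrial chaperonin, was at 190 CPM in rechallenged, 496 in challenged once and 250 in unchallenged cells, and Hsph1, an HSP110, at 29.7, 86.2 and 37.5 CPM. The challenged once library stood above both others for each of these. Erythroid cells held 4.83, 8.92 and 4.03 CPM of Hspa1b.

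**Figure D4:**
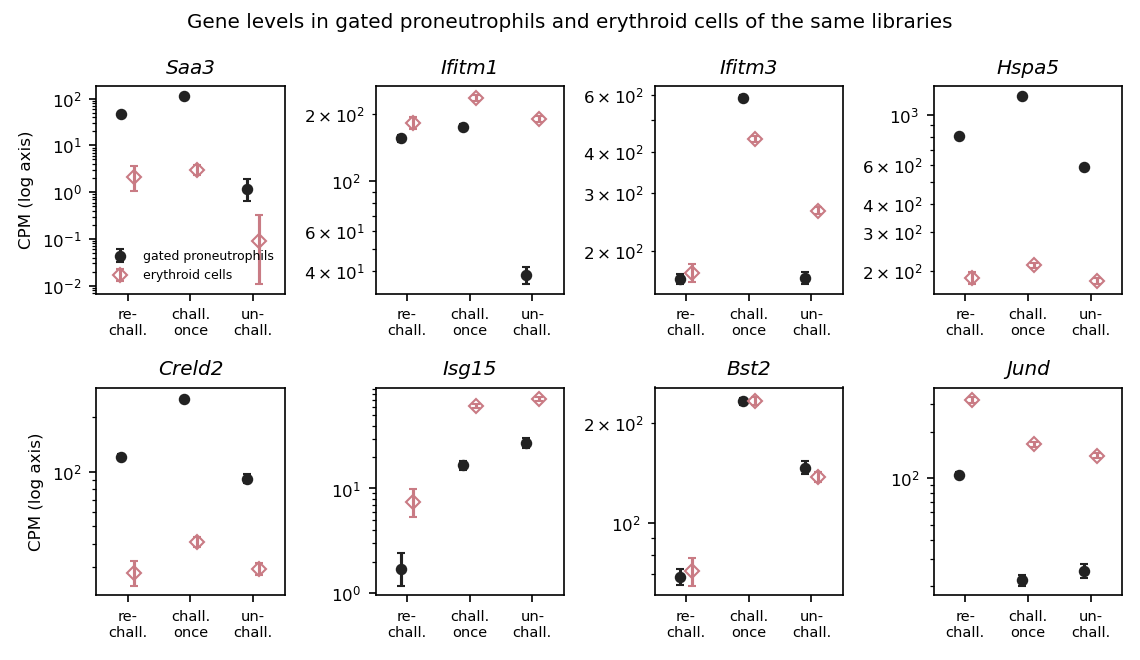
Levels of 8 genes (CPM, log axes that do not start at 0) in selected proneutrophils (filled circles) and in erythroid cells of the same libraries (open diamonds), with exact Poisson 95% intervals. Saa3 is at 113 CPM in challenged once and 1.14 CPM in unchallenged proneutrophils but at 2.07 CPM in rechallenged, 3 in challenged once and 0.0896 in unchallenged erythroid cells, whereas Bst2 orders the libraries alike in both cell types.

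Among other genes, Mif, a cytokine, was at 965 CPM in rechallenged, 1419 in challenged once and 663 in unchallenged cells, 2.14-fold higher (2.09 to 2.19) after 1 challenge than unchallenged. Chchd10, a mitochondrial protein, was at 55.0, 138 and 60.9 CPM in the order rechallenged, challenged once, unchallenged. Of 16 glycolysis genes, Ldha (lactate dehydrogenase A) and Aldoa (aldolase A) passed 1.5-fold upward and 0 downward, with 0.30 as the median. Aldoa fell below 1.5-fold under median-of-ratios scaling (log2 ratio 0.52 in place of 0.60). In the G2 and M phase list, 6 of 44 genes passed 1.5-fold upward and 0 downward (median 0.25), and 2 passed upward under median-of-ratios scaling. No gene of 24 in the proteasome list passed 1.5-fold although the median was 0.40.

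Stem and progenitor genes were lower after 1 challenge, 4 of 14 measured by at least 1.5-fold and 0 higher, with a median of -0.36 against 0.20 in erythroid cells. Cd34 was at 7.20 CPM (6.05 to 8.50) in rechallenged, 12.6 (11.3 to 14.0) in challenged once and 28.6 (25.8 to 31.7) in unchallenged cells. Cd27, a receptor of the TNF receptor family on progenitors, was at 12.9 CPM in rechallenged, 15.8 in challenged once and 37.5 in unchallenged cells. Sox4, a progenitor transcription factor, was at 13.9, 14.9 and 29.9 CPM in the same order. These genes were highest in unchallenged cells although unchallenged cells held the most Elane. With equal weight for the 3 Elane ranges the log2 ratio of Cd34 was -1.39 in place of -0.77 for challenged once, and -1.84 in place of -1.17 for rechallenged, over unchallenged. This weighting raises the part of the lowest unchallenged range, 85 cells with erythroid markers at 671 CPM and basophil markers at 253 CPM. It also raises the part of the highest rechallenged range, of 21 cells, so the larger ratios are not read as a stronger difference. Kit, the receptor used for enrichment, was at 32.9, 29.4 and 38.4 CPM.

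After repeated challenge, 8749 genes were measured against the unchallenged library, and 177 (2.02%) were at least 1.5-fold higher and 616 (7.04%) lower in rechallenged proneutrophils. The median log2 ratio of all genes was -0.11. Median-of-ratios scaling, which replaces total UMIs, shifted the libraries of this pair against each other by 0.19 on the log2 scale. With the 10 CPM added, genes at low levels moved less, such as Ikzf2 from -0.59 to -0.52. This scaling gave 373 higher and 290 lower genes, so the share of called genes that were higher was 56.3% in place of 22.3%. For challenged once over unchallenged this shift was -0.08, with a share of 39.5% in place of 56.5%, and for rechallenged over challenged once 0.24, with 45.8% in place of 13.3%. Counts of groups that differ between the scalings are given below with both.

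Interferon response genes were lower in rechallenged cells than in either other library. Against the unchallenged library 13 of 27 genes passed 1.5-fold downward and 0 upward, with a median of -0.53 (-0.47 and again 13 lower under median-of-ratios scaling). Isg15, a ubiquitin-like modifier, was at 1.71 CPM (1.18 to 2.40) in rechallenged, 16.6 (15.1 to 18.3) in challenged once and 27.2 (24.5 to 30.2) in unchallenged cells. Rtp4, an interferon-induced chaperone of receptors, was at 0.725 CPM (0.397 to 1.22) in rechallenged, 23.9 (22.1 to 25.9) in challenged once and 17.8 (15.6 to 20.2) in unchallenged cells. Bst2, the antiviral protein tetherin, was at 68.4 CPM (64.8 to 72.2) in rechallenged, 234 (228 to 239) in challenged once and 147 (140 to 154) in unchallenged cells. The rechallenged library was lowest for all 3 genes, with no overlap of intervals. Isg15 was 15.9-fold lower (11.1 to 23.5) in rechallenged than in unchallenged cells.

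Erythroid cells showed the same direction for this list, with a median of -0.62 for rechallenged over unchallenged and -0.85 over challenged once. Isg15 was at 7.41 CPM in rechallenged, 61.7 in challenged once and 71.6 in unchallenged erythroid cells, above proneutrophils in each library. Bst2 was at 71.2, 234 and 138 CPM in the same order, close to its levels in proneutrophils. At 5000 UMIs per cell, 0.716% of rechallenged, 8.52% of challenged once and 9.96% of unchallenged proneutrophils held an Isg15 UMI (2.60%, 27.7% and 27.0% without thinning), against 2.86%, 21.4% and 20.5% of erythroid cells. Its detection in proneutrophils lies below the erythroid share and is not read as expression by them. Whether these UMIs came from the proneutrophils or from free RNA was not tested. The same holds for Rtp4, with a UMI in 0.398% of rechallenged, 11.2% of challenged once and 8.64% of unchallenged proneutrophils (0.868%, 32.5% and 22.2% without thinning) against 2.29%, 23.9% and 17.2% of erythroid cells.

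MHC class I genes, which present peptides to T cells, were lower too, 4 of 15 measured by at least 1.5-fold and 0 higher (median -0.49), or 2 of 15 with a median of -0.32 under median-of-ratios scaling. In erythroid cells the median was -0.05. H2-D1, a classical class I heavy chain, was at 369 CPM in rechallenged, 687 in challenged once and 719 in unchallenged cells. H2-T23, the nonclassical Qa-1 heavy chain, was at 10.6 CPM (9.22 to 12.2) in rechallenged, 40.1 (37.7 to 42.6) in challenged once and 46.3 (42.7 to 50.2) in unchallenged cells. Both stood lowest after repeated challenge.

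Ribosome biogenesis genes, which feed protein synthesis in growing cells, were lowest in rechallenged cells too. In rechallenged over unchallenged cells 12 of 22 passed 1.5-fold downward and 0 upward (median -0.65), or 9 with a median of -0.48 under median-of-ratios scaling. In erythroid cells the median was -0.34. Ncl, nucleolin, was at 338 CPM (330 to 346) in rechallenged, 842 (831 to 853) in challenged once and 536 (524 to 549) in unchallenged cells. Its log2 ratio of rechallenged over unchallenged was -0.65 and fell short of 1.5-fold, at -0.47, under median-of-ratios scaling. Rrs1, a ribosome assembly factor, was at 36.9 CPM in rechallenged, 89.8 in challenged once and 94.1 in unchallenged cells. Nolc1, a nucleolar phosphoprotein, was at 42.5, 123 and 89.0 CPM in the same order.

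Outside the lists, Srm, which makes spermidine, was at 92.6 CPM (88.4 to 97) in rechallenged, 317 (310 to 324) in challenged once and 223 (215 to 231) in unchallenged cells. Eif5a, the translation factor that carries a spermidine-derived residue, was at 792 CPM in rechallenged, 2037 in challenged once and 1323 in unchallenged cells. Both were lowest in rechallenged and highest in challenged once proneutrophils. Erythroid cells held 208, 277 and 252 CPM of Srm and 769, 1476 and 1459 CPM of Eif5a in that order of libraries.

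Cybb and Vcam1 were higher after repeated challenge. Cybb, the catalytic subunit of the phagocyte NADPH oxidase, was at 105 CPM (101 to 110) in rechallenged, 57.7 (54.9 to 60.7) in challenged once and 48.5 (44.9 to 52.5) in unchallenged cells. Of 7 measured oxidase genes, it was the 1 at least 1.5-fold higher, while Ncf4 was lower, and under median-of-ratios scaling 2 were higher and 0 lower. Vcam1 was at 84.6 CPM (80.6 to 88.8) in rechallenged, 33.1 (31.0 to 35.4) in challenged once and 33.5 (30.4 to 36.8) in unchallenged cells, against at most 3.45 CPM in erythroid cells of any library. Both were higher in rechallenged than in unchallenged cells, by 2.17-fold (1.99 to 2.38) for Cybb and 2.53-fold (2.27 to 2.81) for Vcam1. With equal weight for the Elane ranges, both also passed 1.5-fold upward for challenged once over unchallenged. The log2 ratio there was 0.63 in place of 0.21 for Cybb and 0.60 in place of -0.01 for Vcam1. This weighting raises the part of the lowest unchallenged range, of 85 cells. Over challenged once cells, Itgam and Itgal, integrin chains of leukocytes, were 2.13-fold (1.87 to 2.44) and 2.01-fold (1.74 to 2.32) higher, but the log2 ratio of Itgam fell short of 1.5-fold, at 0.54 in place of 0.73, with equal weight for the Elane ranges. They belong to a list of adhesion and homing receptors, of which 2 of 18 measured were higher and 2, Cd48 and Cd81, lower in that pair, or 4 higher and 0 lower under median-of-ratios scaling. Over unchallenged cells 0 of 18 were higher and 5 lower, or 1 and 4 under that scaling.

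Among transcription factors, few passed 1.5-fold. Id2, an inhibitor of helix-loop-helix factors, was at 79.2 CPM (75.3 to 83.3) in rechallenged, 45.3 (42.8 to 47.9) in challenged once and 31.9 (28.9 to 35.1) in unchallenged cells. Cebpa, needed for granulocyte commitment, was at 43.6 CPM in rechallenged, 58.0 in challenged once and 82.3 in unchallenged cells. Gfi1, a repressor of monocyte genes, was at 75 CPM in rechallenged, 51.1 in challenged once and 49.4 in unchallenged cells, with a log2 ratio of 0.52 for rechallenged over unchallenged that lay below 1.5-fold but passed it, at 0.68, under median-of-ratios scaling and, at 0.59, with 1 CPM added in place of 10. Id2 was thus highest and Cebpa lowest after repeated challenge. Cebpb, the factor of emergency granulopoiesis, was at 248, 257 and 218 CPM, and Cebpe at 245, 360 and 332 CPM, with no ratio between libraries of 1.5-fold. Of 12 measured granulocyte factors, 0 were higher and 1, Cebpa, was lower in rechallenged than in unchallenged cells (median 0.02), or 1 higher and 1 lower with a median of 0.15 under median-of-ratios scaling. Spi1, which encodes PU.1, was at 176, 281 and 251 CPM.

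Genes of oxidative phosphorylation were higher after repeated challenge than at steady state, 10 of 35 by at least 1.5-fold and 0 lower (median 0.47), or 20 of 35 with a median of 0.65 under median-of-ratios scaling. In erythroid cells the median was 0.07. Over challenged once cells 3 were higher, among them Cox6a1 and Atp5k, and 3 lower (median 0.22). That pair had 12 higher and 2 lower under median-of-ratios scaling (median 0.46). Challenged once over unchallenged cells had 4 higher and 0 lower (median 0.23), or 2 higher with a median of 0.15 under that scaling. Cox6a1, a subunit of cytochrome c oxidase, was at 973 CPM (959 to 987) in rechallenged, 608 (598 to 617) in challenged once and 483 (471 to 495) in unchallenged cells. Atp5k, a subunit of the ATP synthase, was at 1100 CPM in rechallenged, 608 in challenged once and 574 in unchallenged cells. The genes of the mitochondrial genome were higher as well, 3 of 13 by at least 1.5-fold (median 0.35), or 4 with a median of 0.53 under median-of-ratios scaling, but in erythroid cells their median was 0.65. Mitochondrial transcripts also entered the cell filter, and mt-Co1 was at 8746, 4091 and 5091 CPM in the same order.

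Receptors that set the cells' response to growth factors differed less. Csf3r, the receptor for G-CSF, was at 55.4 CPM in rechallenged, 44.9 in challenged once and 43.2 in unchallenged cells. Csf2rb, the shared chain of the GM-CSF, IL-3 and IL-5 receptors, was at 36.6 CPM (34.0 to 39.4) in rechallenged, 42.9 (40.4 to 45.4) in challenged once and 22.7 (20.2 to 25.4) in unchallenged cells. It was the 1 of 15 measured cytokine receptors at least 1.5-fold higher after 1 challenge than unchallenged, with a log2 ratio of 0.69, and fell short at 0.55 with equal weight for the Elane ranges. Of the measured endotoxin sensing genes, 0 of 8 passed 1.5-fold in rechallenged and 0 of 10 in challenged once over unchallenged cells. Ly6c2, a surface protein of myeloid cells, was at 1945 CPM in rechallenged, 1750 in challenged once and 3205 in unchallenged cells. With equal weight for the Elane ranges its log2 ratio was -0.21 in place of -0.87 for challenged once over unchallenged and -0.44 in place of -0.72 for rechallenged over unchallenged, which under median-of-ratios scaling was -0.53, so each fell short of 1.5-fold.

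Between the challenged libraries, 9220 genes were measured, of which 145 (1.57%) were at least 1.5-fold higher and 947 (10.3%) lower in rechallenged than in challenged once proneutrophils. The median log2 ratio of all genes was -0.13. Both this comparison and the one before use the rechallenged library, and the first 2 share the unchallenged one, so they are not independent.

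Chaperone, ribosome biogenesis and proteasome genes were lower in rechallenged than in challenged once cells. Against unchallenged cells, the chaperone lists had been higher after 1 challenge. Fewer genes of the other lists had passed 1.5-fold there. These were 3 of 22 ribosome biogenesis genes (median 0.29), or 2 under median-of-ratios scaling (median 0.23), and 0 of 24 proteasome genes. Of 15 heat shock chaperones, 14 passed 1.5-fold downward and 0 upward (median -0.90), or 9 with a median of -0.67 under median-of-ratios scaling, against a median of -0.23 in erythroid cells. Hspa8, the constitutive HSC70, was at 1144 CPM in rechallenged, 2551 in challenged once and 1803 in unchallenged cells. Of 22 ribosome biogenesis genes, 18 were lower and 0 higher (median -0.90), or 15 with a median of -0.69 under median-of-ratios scaling, against -0.38 in erythroid cells. Of 24 proteasome genes, 14 were lower and 0 higher (median -0.63), or 7 with a median of -0.41 under median-of-ratios scaling, against -0.39 in erythroid cells.

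Psmc2, an ATPase of the proteasome's regulatory particle, was at 40.5 CPM (37.7 to 43.5) in rechallenged, 96.9 (93.2 to 101) in challenged once and 69.7 (65.3 to 74.4) in unchallenged cells. Of 20 endoplasmic reticulum chaperones, 6 passed 1.5-fold downward and 0 upward in rechallenged over challenged once cells (median -0.44), or 4 with a median of -0.21 under median-of-ratios scaling. Interferon response genes were lower in 13 of 31 measured and higher in 0 (median -0.52, or -0.45 and again 13 under median-of-ratios scaling). Erythroid cells shared this direction, as given above, so it is not particular to proneutrophils. Hspa5 differed by 1.5-fold (1.48 to 1.53), near the line for a call.

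**Figure D5:**
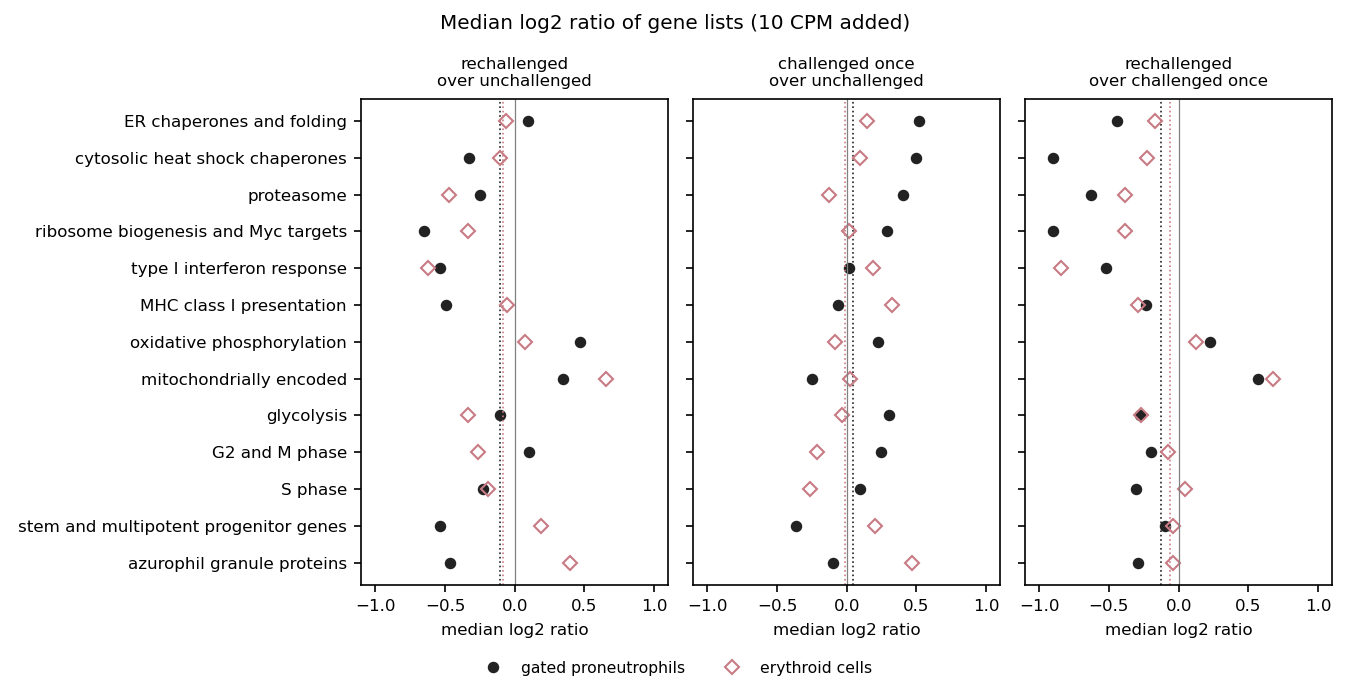
Median log2 ratio (horizontal axes, 10 CPM added) of 13 gene lists in selected proneutrophils (filled circles) and erythroid cells (open diamonds) for the 3 comparisons. Dotted lines mark the median of all measured genes in each cell type, and in proneutrophils chaperone lists lie at 0.52 and 0.50 for challenged once over unchallenged but at -0.44 and -0.90 for rechallenged over challenged once.

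A few genes with large differences between libraries behaved alike in unrelated cells. Hist1h2ap, a replication-dependent histone, was at 1284 CPM in rechallenged, 103 in challenged once and 413 in unchallenged proneutrophils, and at 3072, 279 and 1063 CPM in erythroid cells. Jund, an immediate early AP-1 factor, was at 104 CPM in rechallenged, 21.9 in challenged once and 25 in unchallenged proneutrophils, and at 321, 165 and 140 CPM in erythroid cells. Gstp1, a glutathione transferase, was at 48.3, 11.3 and 40.7 CPM in proneutrophils and 129, 35.4 and 91.7 CPM in erythroid cells in the same order. The rechallenged library was highest for each of these genes in both cell types, while the order of the challenged once and unchallenged libraries differed between the cell types for Jund. Between the challenged libraries Hist1h2ap alone of 16 measured histone genes passed 1.5-fold upward and 0 passed downward (median 0.28), whereas 5 passed upward under median-of-ratios scaling (median 0.39).

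Almost every selected cell carried S phase transcripts. After thinning to 2000 UMIs, 92.6% (91.1 to 94.0) of rechallenged, 96.9% (95.6 to 97.8) of challenged once and 92.6% (90.4 to 94.4) of unchallenged proneutrophils held at least 2 UMIs over 30 S phase genes. In late neutrophils, which have left the cycle, the same share was 19.9% in rechallenged, 30.3% in challenged once and 36.7% in unchallenged cells, whose median depths were 4353, 4563 and 7498 UMIs. The corresponding G2 and M phase shares were 99.4%, 99.9% and 98.1% in proneutrophils and 74.3%, 91.5% and 95.8% in late neutrophils, so they do not tell cycling cells apart. Mki67, a proliferation marker, was at 101 CPM in rechallenged, 77.3 in challenged once and 60.0 in unchallenged proneutrophils. Ung, which removes uracil from DNA, was at 14.3 CPM in rechallenged, 34.3 in challenged once and 51.4 in unchallenged cells, the reverse order. Of 30 S phase genes, 1 was at least 1.5-fold higher and 4 lower in rechallenged than in unchallenged cells (median -0.23), but 2 lower with a median of -0.06 under median-of-ratios scaling.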

How the data were processed

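The members and gene lists were chosen with earlier results of these data known. The deposited values are whole counts of UMIs per gene and cell barcode, checked on the files, with 31053 genes in each of 3 libraries. Cell Ranger 3.0.0 and the build mm10 are named in the submitters' processing notes, and the authors' filters beyond this are not given in the sources used here. Labels gave the groups, 1 library each. Other cells came from gates on the same counts, namely erythroid cells (at least 3 UMIs over a short list of erythroid genes, among them Car1, Klf1 and Rhag, and Elane below 4000 CPM) and late neutrophils.

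UMIs were summed over the selected cells of a library and given per 1000000. Ratios were log2 after adding 10 CPM, where a gene had 100 or more UMIs in the pair of libraries, and a call means 1.5-fold. Levels carry exact Poisson and shares exact Clopper-Pearson 95% intervals, for counting error only. With 1 library per group no test across samples was made. UMIs removed PCR copies, and depth is given with the results. Shares of cells with a UMI were thinned to 5000 UMIs per cell, which left out 10 rechallenged, 9 challenged once and 10 unchallenged proneutrophils. Cycle shares were thinned to 2000.

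Genes named are, per comparison, the 8 most above and the 8 most below the other library by log2 ratio (without ribosomal protein, mitochondrial, immunoglobulin, haemoglobin, predicted and gate genes), up to 4 per list of 35, and the granule, factor and receptor genes of a set list. Others are said to be chosen after their values. Not every gene that the rule takes is described. Gene positions are those of GENCODE M21 and start regions those of RefSeq, which matched 529 of 690 list genes. The ratio step was tested on simulated data. Alternatives were a stricter or no cell filter, leaving out Scrublet calls, stricter gates, median-of-ratios scaling, 1 CPM added, no gene minimum, equal weight of cells or of Elane ranges, and other cycle settings. Tools were Python 3.11.15, numpy 2.4.6, scipy 1.17.1, pandas 2.3.3, scanpy 1.11.5 and matplotlib 3.10.9.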

Additional observations from a re-analysis of the deposited data

How the results depend on the processing

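No paired analysis was possible because each group holds 1 library. Shares of kept cells moved beyond their counting interval with the gates. With Elane of at least 8000 CPM they were 5.60% of rechallenged, 7.45% of challenged once and 6.59% of unchallenged cells, with Camp plus Ngp below 5000 CPM 13.8% of rechallenged and 6.97% of unchallenged cells, and with at most 200 CPM of the monocyte genes, an alternative chosen after seeing the data, 14.1% of rechallenged cells. Counts of genes past 1.5-fold moved under median-of-ratios scaling to 373 higher and 290 lower (rechallenged over unchallenged), 92 higher (challenged once over unchallenged), and 337 higher and 399 lower (rechallenged over challenged once). Adding 1 CPM in place of 10 gave 523 higher and 1588 lower, 395 higher and 348 lower, and 435 higher and 2028 lower in the same order, and equal weight for the Elane ranges 1008 lower for rechallenged over unchallenged. The log2 ratio of Fcnb for that pair reversed to 0.43 under that weighting. Shares of cells with S phase transcripts were 99.8%, 99.9% and 99.9% of rechallenged, challenged once and unchallenged cells at 4000 UMIs, 69.4%, 83.7% and 74.1% with at least 4 UMIs over the list, and 99.8%, 99.5% and 99.7% without thinning. G2 and M phase shares were 100% in all 3 libraries at 4000 UMIs and without thinning, 96.0%, 99.1% and 89.5% with at least 4 UMIs, and 99.8% of rechallenged and 100% of challenged once cells at Elane of at least 8000 CPM. The cause of these moves was not tested.

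Of 1260 list medians recomputed, 1230 kept their direction and their side of 1.5-fold, 23 moved past it and 7 fell short of it. Of 3054 values for single genes, 2944 kept both, 60 moved past, 49 fell short and 1 reversed. Depth limits the lowest genes most, since Saa3 in unchallenged cells rests on 15 UMIs and Rtp4 in rechallenged cells on 14. Ratios of Wfdc17 were unstable, at 0.83 for rechallenged over unchallenged without Scrublet calls in place of 1.64.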

Other observations

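Metallothioneins, which bind zinc and copper, were higher after repeated challenge. Mt1 was at 1248 CPM (1233 to 1264) in rechallenged, 721 (711 to 731) in challenged once and 635 (622 to 649) in unchallenged proneutrophils, and Mt2 at 25.2, 12.1 and 6.54 CPM in the same order. In erythroid cells Mt1 was at 1048, 922 and 719 CPM, so the order of libraries was alike there. Of 19 antioxidant and metallothionein genes measured for rechallenged over unchallenged, 5 were at least 1.5-fold higher and 1, Sod2, was lower, or 5 and 0 under median-of-ratios scaling.

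Among genes of the Bcl2 family, which set survival of cells, Mcl1 and Bcl2 stood in opposite orders. Mcl1, on which neutrophil survival depends, was at 60.5 CPM (57.0 to 64.0) in rechallenged, 39.0 (36.7 to 41.4) in challenged once and 28.3 (25.5 to 31.3) in unchallenged proneutrophils. Bcl2 was at 5.80 CPM (4.78 to 6.98) in rechallenged, 6.79 (5.83 to 7.86) in challenged once and 15.4 (13.3 to 17.6) in unchallenged cells. Erythroid cells held 84.8, 53.5 and 47.1 CPM of Mcl1, again highest in the rechallenged library. Per3, a gene of the circadian clock, was at 34.2 CPM (31.7 to 37.0) in rechallenged, 14.7 (13.3 to 16.2) in challenged once and 32.4 (29.4 to 35.6) in unchallenged proneutrophils, lowest after 1 challenge, and the labels give no hour of collection.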
